A study of Mus musculus with 12 samples.

Results

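The genes described here encode 41 enzymes that break down amino acids or carry methyl and single-carbon units in liver. They were chosen by name as a list of known enzymes, and all 41 of the 41 listed symbols were among the 24421 genes of the deposited count table. All 41 also passed the filter on low counts that left 13880 genes to test. They cover the tyrosine (4 genes), tryptophan (5), histidine (3), proline (3), transaminase (5), glycine cleavage (2), methionine cycle (3), sulfur amino acid (4), betaine and sarcosine (5), branched-chain (5) and lysine (2) pathways.

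Liver free of tumour was taken from 12 male mice aged 4 months, 3 to each of 4 groups, and its RNA sequenced. The groups were LiK mice on a normal diet, LiK mice on a diet with 0.06% ACR, LiKM mice on a normal diet and LiKM mice on the 0.06% ACR diet, the ACR diet having been given from 5 weeks of age. The labels name the strains without spelling out their alleles; from what is known of the study, hepatocytes of LiKM mice are meant to be without Mdm2, which marks p53 for degradation. ACR is an acyclic retinoid, a synthetic relative of vitamin A. Both strains are engineered, no group of mice without engineered alleles was analysed here, and the promoter that drives the alleles is outside the sources used here.

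The liver is the main site where amino acids from food and from protein turnover are oxidised. Aromatic, branched-chain and basic amino acids are cut by dedicated oxidases, dehydrogenases and aminotransferases to intermediates of energy metabolism. The methionine cycle makes S-adenosylmethionine, the methyl donor of most cellular methylation, and recycles or discards homocysteine, while betaine, dimethylglycine, sarcosine and glycine feed their carbon into the folate pool. Most of these enzymes are made at high levels in hepatocytes and, in part, in the proximal tubule of the kidney.

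Library totals ran from 10124813 to 18647156 counts, and the 41 genes together took 1.30% to 2.01% of them (1.80% to 2.01% in LiK mice on the normal diet and 1.53% to 1.87% in LiKM mice on it). Levels are in CPM, counts scaled to a common library total, after correction with TMM factors, which ran from 0.83 to 0.948 in LiK and from 1.078 to 1.243 in LiKM mice on the normal diet, and values in a row are for mice 1, 2 and 3 of a group. The replicates are separate mice by their titles. Bulk RNA from a whole tissue cannot tell fewer hepatocytes apart from less RNA per hepatocyte. Of 20 hepatocyte markers outside the enzyme list, 19 were in the table and 4 were lower in LiKM than in LiK mice on the normal diet (median log2 fold change -0.36). Their summed level was 157423 to 210546 CPM in LiK and 125389 to 137999 CPM in LiKM mice. This gap depends on the scaling, because the TMM factors were higher in LiKM mice. As a share of unscaled library totals, the marker Alb took 10.87%, 8.006% and 10.706% in LiK mice. In LiKM mice it took 8.282%, 8.145% and 8.193%, so the strains overlapped. All 11 of the bile duct and progenitor markers tested were higher (median log2 4.40), with summed levels of 44.4 to 60.0 CPM in LiK and 651 to 1101 CPM in LiKM mice. Of 7 T and NK cell markers tested 6 were higher, with sums of 0.921 to 1.47 and 4.92 to 11.1 CPM. Kidney tubule markers were at 0 to 0.0795 CPM in all 12 libraries. The part of cell makeup in these marker differences and in the enzyme results was not tested.

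Promoter windows of 250 bases before the transcript start are given for 36 of the 41 genes in RefSeq (GRCm38.p6, the same assembly as mm10). The hexamer AGGTCA, which nuclear receptors recognise, was searched on both strands and occurred in 13 of these 36 windows (36.1%), against 12.5% of the windows of 17224 genes in the table. Several of these windows overlap annotated exons, Haao and Tdo2 in all 250 bases, and of windows with at most 30 exon bases 6 of 18 (33.3%) held it, against 13.6% of 10724. The C/EBP core TTGCNNAAT occurred in 2 of the 36 (5.6%, against 2.01% of all windows), the HNF1 motif GTTAAT in 3 (8.3% against 5.78%), the E-box CACGTG in 2 (5.6% against 6.87%), the HNF4A core CAAAGTCCA in 1 (2.8% against 0.395%) and the clock D-box TTATGNAA in 0 (against 3.12%). None of these motifs contains another. A match describes letters and not a bound site. The 5 windows below hold AGGTCA or its reverse complement TGACCT, shown in capitals, belong to enzymes that were lower in LiKM mice, and overlap annotated exons by at most 5 bases. Each is printed 5′ to 3′ on the gene's own strand.
Got1 (chr19:43524606-43524855, - strand): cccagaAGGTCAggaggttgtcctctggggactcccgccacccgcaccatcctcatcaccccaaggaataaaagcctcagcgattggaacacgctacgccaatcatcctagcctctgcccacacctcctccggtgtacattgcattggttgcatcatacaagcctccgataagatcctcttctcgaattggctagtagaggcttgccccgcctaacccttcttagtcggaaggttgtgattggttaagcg
Gnmt (chr17:46729166-46729415, - strand): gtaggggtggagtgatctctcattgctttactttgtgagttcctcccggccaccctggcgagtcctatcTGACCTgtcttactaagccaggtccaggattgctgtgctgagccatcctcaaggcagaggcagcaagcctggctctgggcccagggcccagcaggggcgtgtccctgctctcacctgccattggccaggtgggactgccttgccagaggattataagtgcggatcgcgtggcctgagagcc
Aass (chr6:23132987-23133236, - strand): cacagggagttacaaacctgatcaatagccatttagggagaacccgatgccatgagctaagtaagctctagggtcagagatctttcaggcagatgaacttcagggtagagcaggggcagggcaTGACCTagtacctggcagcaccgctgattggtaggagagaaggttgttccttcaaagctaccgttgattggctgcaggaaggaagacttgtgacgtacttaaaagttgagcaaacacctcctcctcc
Hgd (chr16:37579903-37580152, + strand): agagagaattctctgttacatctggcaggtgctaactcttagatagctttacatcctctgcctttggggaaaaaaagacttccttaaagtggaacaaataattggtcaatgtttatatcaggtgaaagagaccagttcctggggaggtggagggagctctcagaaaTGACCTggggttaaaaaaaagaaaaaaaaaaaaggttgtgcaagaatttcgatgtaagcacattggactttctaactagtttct
Uroc1 (chr6:90333039-90333288, + strand): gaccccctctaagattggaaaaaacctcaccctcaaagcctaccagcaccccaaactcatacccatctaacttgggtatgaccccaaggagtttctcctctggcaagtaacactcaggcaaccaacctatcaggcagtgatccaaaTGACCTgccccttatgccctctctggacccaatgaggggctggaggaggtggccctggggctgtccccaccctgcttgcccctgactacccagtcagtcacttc
The motif begins at -244 in Got1, -181 in Gnmt, -127 in Aass, -84 in Hgd and -104 in Uroc1, counted from the transcript start, so its place differed from gene to gene. The next 2 sequences hold none of the 6 motifs. The first lies before Etnppl, the enzyme with the widest strain difference, and the second is the whole stretch of 133 bases between the starts of Bhmt2 and Dmgdh, which are transcribed away from each other and both fell.
Etnppl (chr3:130617198-130617447, + strand): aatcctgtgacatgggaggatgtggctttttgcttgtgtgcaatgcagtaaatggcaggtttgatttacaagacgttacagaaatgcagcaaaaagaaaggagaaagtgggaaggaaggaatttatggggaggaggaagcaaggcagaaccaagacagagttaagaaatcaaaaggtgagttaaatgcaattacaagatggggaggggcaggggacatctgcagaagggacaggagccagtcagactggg
Bhmt2-Dmgdh (chr13:93674303-93674435, + strand): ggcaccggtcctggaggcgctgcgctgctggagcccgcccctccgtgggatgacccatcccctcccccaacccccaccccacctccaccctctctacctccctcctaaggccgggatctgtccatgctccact

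On the normal diet the enzyme genes lay lower in LiKM than in LiK livers in all 11 pathways with TMM scaling, while 11 of the 41 lay higher with library size alone and 12 with scaling to hepatocyte markers. Of the 41 genes, 21 fell and 0 rose, where 8.61% of all genes tested fell, 13.2% rose and 21.8% did either. A fall by log2 1 or more was seen in 2 of the 41, Sardh and Etnppl, against 0.728% of all genes. An unadjusted p below 0.05 was reached by 26, against 35.8% of all genes. With TMM all 41 fitted log2 fold changes lay below 0 (median -0.55, against 0.02 over the 13880 genes tested). In 31 of the 41 all LiKM mice lay below all LiK mice in TMM-scaled CPM, which held for 19.4% of all genes. This count was not made under other scalings. It depends on the scaling too, because every TMM factor was higher in LiKM than in LiK mice on the normal diet. The size of this difference depended on how libraries were scaled: with library size alone, which moved the median of all genes to 0.40, 3 of the 41 fell, 30 lay below 0 and 11 above, and the median was -0.17. Scaled to the hepatocyte markers the median of all genes was 0.44, 3 fell, 29 lay below 0 and 12 above, and the median was -0.14. Relative to the median of all genes the enzymes' median was thus -0.57, -0.57 and -0.58. A change of scaling moves all genes by about the same amount, so these 3 values could hardly differ. Their likeness is no separate check of the result. The same 3 genes, Dmgdh, Sardh and Etnppl, fell under both of these scalings, and none of the 21 lay above 0 under either. The values below, and each statement that groups did or did not overlap, are with TMM. Over all genes 1836 rose and 1195 fell with TMM, 4716 and 115 with library size alone, and 5564 and 101 with the hepatocyte markers.

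**Figure D1:**
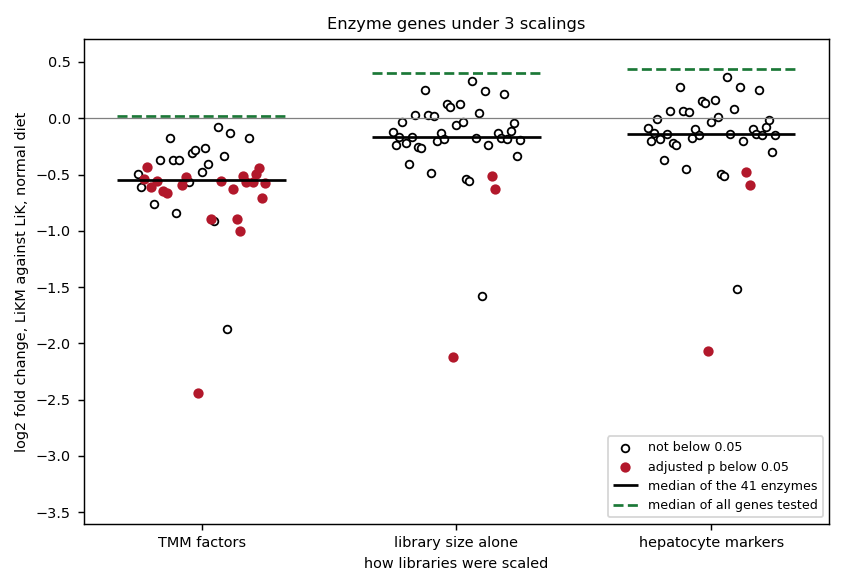
Log2 fold change of the 41 enzyme genes (y axis, LiKM against LiK on the normal diet) under 3 ways of scaling the libraries (x axis); red points passed the test (adjusted p below 0.05), solid lines are the enzymes' medians and dashed lines those of all genes tested. With TMM all 41 points lie below 0 and 21 passed. With library size alone 11 and with hepatocyte markers 12 lie above 0, and 3 passed under each. The distance between both lines is -0.57, -0.57 and -0.58, which a change of scaling leaves nearly unaltered by construction.

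The count also rested on single mice. Without LiK normal diet 1, 4 enzymes fell (17 of the 21 calls ended). There were 9 without LiK normal diet 3, 12 without LiKM normal diet 1 and 11 without LiKM normal diet 3, and 14 to 25 without any other library. With only the 6 libraries compared in the fit it was 9. The calls of Hgd, Tdo2, Cth and Gnmt ended without 10, 9, 9 and 8 of the 12 libraries in turn. Dmgdh and Sardh fell under each of the 11 alternatives and without each library in turn, and Haao and Gcdh lost their call under the 2 other scalings only. In a further fit LiKM mice of both diets were paired by number, a pairing that no label states and that was inferred from these data. With that replicate block, averaged over the 3 numbers, 30 enzymes fell, all 21 among them. It added Hpd, Afmid, Kynu, Ftcd, Prodh, Prodh2, Gpt, Mat1a and Ahcy. The block takes the spread between LiKM numbers out of the error, so its p-values for a strain difference are too small.

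**Figure D2:**
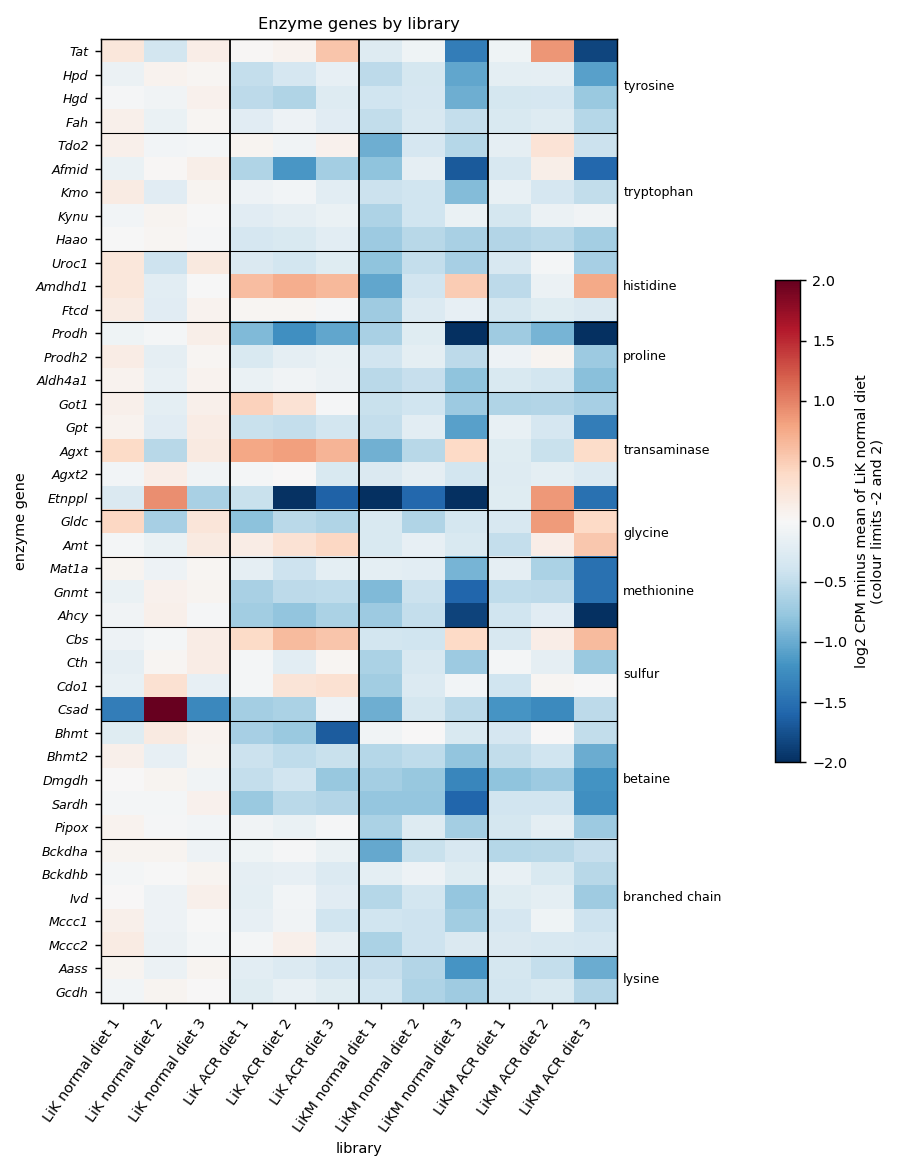
Log2 CPM of each enzyme gene (rows, by pathway) in each of the 12 libraries (columns), minus the gene's mean in LiK mice on the normal diet; blue is lower, red is higher, and colours are limited at -2 and 2. LiKM normal diet 3 and LiKM ACR diet 3 hold the deepest blue, each with the lowest of the 12 values for 13 genes, and Csad is high in LiK normal diet 2 (180.5 CPM). With libraries scaled by size alone or to hepatocyte markers, 11 and 12 of the 41 normal-diet strain differences lie above 0.

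Betaine, dimethylglycine and sarcosine are handed from enzyme to enzyme in mitochondria and the cytosol, and 4 of the 5 genes grouped with this route fell in LiKM mice on the normal diet. They were Dmgdh and Sardh of that chain, and Bhmt2 and Pipox, which are grouped with it. Bhmt, which takes up betaine, did not pass. Sardh (chr2:27188393-27248337, - strand), sarcosine dehydrogenase, releases a single-carbon unit from sarcosine. Sardh stood at 902, 906 and 989.5 CPM in LiK mice on the normal diet and at 558, 644 and 623 CPM on ACR. In LiKM mice its level was 542, 544 and 309.9 CPM without ACR and 716, 718 and 398 CPM with it. On the normal diet no LiKM mouse reached the LiK range, and the level was 2.00-fold lower (log2 fold change -1.003, SE 0.24, edgeR adjusted p = 0.0141). Dmgdh (chr13:93674433-93752833, + strand), dimethylglycine dehydrogenase, acts on the step before. Dmgdh stood at 434, 445 and 411 CPM in LiK mice on the normal diet and at 308, 328 and 253 CPM on ACR. LiKM livers held 268, 254 and 173 CPM without ACR, and those given it 246, 260.5 and 187 CPM. All 6 LiKM mice lay below the 3 normal-diet LiK mice, and the normal-diet difference was 1.85-fold (log2 fold change -0.89, SE 0.18, edgeR adjusted p = 0.0059). With library size alone the difference was log2 -0.52 for Dmgdh and log2 -0.63 for Sardh. Over the alternatives and left-out libraries the edgeR or DESeq2 adjusted p ran from 8.41e-05 to 0.0276 for Dmgdh and from 0.000103 to 0.0465 for Sardh.

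Bhmt2 (chr13:93655720-93674302, - strand), which moves a methyl group from S-methylmethionine to homocysteine, lies head to head with Dmgdh across the printed 133 bases. It fell too (log2 fold change -0.63, SE 0.15, edgeR adjusted p = 0.0132), as did Pipox, the peroxisomal oxidase of pipecolate and sarcosine (log2 fold change -0.51, SE 0.15, edgeR adjusted p = 0.03). Bhmt (chr13:93616675-93637961, - strand), the betaine-homocysteine methyltransferase and the third most abundant of the 41, was the gene of this set that did not pass. Bhmt stood at 1547, 2089 and 1926 CPM in LiK mice on the normal diet and at 1160.3, 1101 and 581 CPM on ACR. Without ACR the LiKM mice had 1743, 1842 and 1488 CPM, and with it 1462, 1854 and 1304 CPM. On the normal diet the strains overlapped (log2 fold change -0.13, SE 0.24, edgeR adjusted p = 0.739), and the LiK mice on ACR were the lowest group. Exons of Dmgdh, Sardh and Bhmt overlap annotated transcripts on the opposite strand by 215, 188 and 187 bases, and no source used here gives the strand setting of the counting, so reads there cannot be assigned with certainty.

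In the methionine cycle, Mat1a makes S-adenosylmethionine, Gnmt consumes it to methylate glycine to sarcosine, and Ahcy splits the S-adenosylhomocysteine that results. With TMM all 3 lay lower in every LiKM than in every LiK mouse on the normal diet, and 1 passed the test. Gnmt stood at 886, 1029.8 and 1009.9 CPM in LiK mice on the normal diet and at 622, 674 and 687 CPM on ACR. Its values in LiKM livers were 526, 721 and 324 CPM without ACR against 687, 674 and 346 CPM with it. The group means on the normal diet were 975 ± 77.9 CPM in LiK and 523 ± 199 CPM in LiKM (SD, n = 3), and Gnmt (chr17:46725664-46729168, - strand) fell 1.86-fold (log2 fold change -0.90, SE 0.29, edgeR adjusted p = 0.044). The 2 libraries numbered 3 were its lowest. Mat1a stood at 3614, 3260.5 and 3591 CPM in LiK mice on the normal diet and at 3085, 2603 and 3036 CPM on ACR. The level in LiKM was 3037, 3022 and 1837 CPM in mice not given ACR, and 3089.6, 2238 and 1237 CPM in those given it. Mat1a (chr14:41105035-41124412, + strand) had the highest mean level of the 41, also per kilobase of exon (809 CPM per kilobase), and did not pass (log2 fold change -0.41, SE 0.29, edgeR adjusted p = 0.333). With library size alone the Mat1a difference was log2 -0.03, and with hepatocyte markers it was log2 0.007. Ahcy ran from 1624 to 1818 CPM in LiK and from 473 to 1221 CPM in LiKM mice on the normal diet (log2 fold change -0.91, SE 0.41, edgeR adjusted p = 0.135). Its deposited values were not whole in 8 libraries, so they are uncertain. The same limit holds for Afmid (7 libraries), Dmgdh (6), Gcdh and Aldh4a1 (5 each) and Haao, Bhmt, Bhmt2 and Bckdha (4 each). Some further enzymes had such values in fewer libraries.

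Transsulfuration turns homocysteine into cysteine through Cbs and Cth, and Cdo1 and Csad lead cysteine on to taurine, which conjugates bile acids. Of these 4 genes Cth fell. Cth stood at 148, 172 and 185 CPM in LiK mice on the normal diet and at 163, 144 and 172 CPM on ACR. In LiKM mice its level was 109, 135 and 101 CPM without ACR and 164, 147 and 99.7 CPM with it. LiKM mice on the normal diet stayed below all LiK mice on it (chr3:157894248-157925077, - strand; log2 fold change -0.55, SE 0.18, edgeR adjusted p = 0.0435). Cbs (log2 -0.08, edgeR adjusted p = 0.855) and Cdo1 (log2 -0.34, edgeR adjusted p = 0.243) overlapped between the strains. Csad shares 278 exon bases with Zfp740 on the opposite strand, so its counts are uncertain. Named here for its outlying value, Csad had 181 CPM in LiK normal diet 2 and 10.7 to 26.1 CPM in the other 11 libraries. Its fitted difference was log2 -1.88 (SE 0.92, edgeR adjusted p = 0.17), with that 1 mouse setting the LiK mean. The bile acid synthesis genes Cyp7a1 and Cyp8b1 were also highest in that library, at 262 and 311 CPM, against 8.42 to 91.3 and 5.35 to 55.5 CPM elsewhere. Whether these levels are linked was not tested.

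Of the tryptophan enzymes, which open the ring and lead through kynurenine toward NAD, 3 of 5 fell, and in all 5 every LiKM mouse was below every LiK mouse on the normal diet. Haao (chr17:83831156-83847963, - strand), the dioxygenase that forms the precursor of quinolinate, had the smallest p of the 41. Haao stood at 426, 438 and 419.9 CPM in LiK mice on the normal diet and at 339, 347 and 368 CPM on ACR. LiKM livers held 258, 292 and 272 CPM without ACR, and those given it 285, 293 and 266 CPM. Values within each group lay close together, and all 6 LiKM mice lay below all 6 LiK mice. The normal-diet difference was 1.56-fold (log2 fold change -0.64, SE 0.097, edgeR adjusted p = 0.00132). Tdo2, tryptophan dioxygenase, which starts the pathway (log2 -0.61, edgeR adjusted p = 0.0427), and Kmo, the kynurenine hydroxylase (log2 -0.56, edgeR adjusted p = 0.0224), also fell. Kynu, kynureninase (log2 -0.37, edgeR adjusted p = 0.0539), and Afmid, the formamidase (log2 -0.77, edgeR adjusted p = 0.212), did not pass. Kynu was at log2 0.027 with library size alone and at log2 0.061 with hepatocyte markers. Afmid shares 1566 exon bases with the predicted gene Gm20708 on the same strand, so its counts are uncertain.

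In tyrosine breakdown, 2 of the 4 genes fell. Fah (chr7:84585159-84606722, - strand) catalyses the last step, the cleavage to fumarate and acetoacetate. Fah stood at 668, 572 and 642 CPM in LiK mice on the normal diet and at 534, 582 and 538 CPM on ACR. Without ACR the LiKM mice had 444, 503 and 451 CPM, and with it 509, 523 and 420.3 CPM. With TMM, LiKM mice on the normal diet did not overlap with LiK mice on it (log2 fold change -0.43, SE 0.12, edgeR adjusted p = 0.0277). The Fah difference was log2 -0.036 with library size alone and log2 -0.003 with hepatocyte markers. Hgd, homogentisate dioxygenase, fell (log2 -0.54, edgeR adjusted p = 0.0479), and Hpd, which acts before it, did not pass (log2 -0.61, edgeR adjusted p = 0.0867). Tat (chr8:109990437-109999803, + strand), the aminotransferase that starts the pathway and a known target of glucocorticoids, had the second highest mean level of the 41. Tat stood at 1919, 1281 and 1808 CPM in LiK mice on the normal diet and at 1662, 1731 and 2412 CPM on ACR. Its values in LiKM livers were 1377, 1546 and 632 CPM without ACR against 1548, 3033 and 459 CPM with it. The 2 LiKM libraries numbered 3 had the lowest and LiKM ACR diet 2 the highest level of all 12, and the strains overlapped (log2 fold change -0.49, SE 0.54, edgeR adjusted p = 0.551).

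Histidine is degraded through urocanate, and 1 of 3 genes fell. Uroc1 (chr6:90333284-90364551, + strand) encodes urocanase. Uroc1 stood at 608, 389 and 596 CPM in LiK mice on the normal diet and at 424, 404 and 438 CPM on ACR. The level in LiKM was 299, 375 and 328 CPM in mice not given ACR, and 417, 504 and 329 CPM in those given it. Every LiKM mouse on the normal diet was below every LiK mouse on it, the nearest values being 375 and 389 CPM (log2 fold change -0.67, SE 0.19, edgeR adjusted p = 0.0276). Ftcd, which passes the formimino group to folate (log2 -0.37, edgeR adjusted p = 0.0946), and Amdhd1, imidazolonepropionase (log2 -0.18, edgeR adjusted p = 0.778), did not pass. In proline breakdown, 1 of 3 fell. Aldh4a1 (chr4:139622866-139649690, + strand) oxidises the product of proline dehydrogenase to glutamate. Aldh4a1 stood at 491, 425 and 493 CPM in LiK mice on the normal diet and at 426, 447 and 432 CPM on ACR. In LiKM mice its level was 323, 342 and 269 CPM without ACR and 379, 361 and 261 CPM with it. It was 1.51-fold lower on the normal diet without overlap (log2 fold change -0.59, SE 0.15, edgeR adjusted p = 0.0167), and 1595 of its exon bases are shared with a predicted gene on the same strand. Prodh (log2 -0.84, edgeR adjusted p = 0.246) and Prodh2 (log2 -0.37, edgeR adjusted p = 0.155) did not pass, and Prodh had 45.1 CPM in LiKM normal diet 3 against 144 and 192 CPM in the other LiKM mice on that diet.

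In branched-chain breakdown 4 of 5 genes fell, and with TMM the strains did not overlap on the normal diet in any of the 5. Ivd (chr2:118861954-118882909, + strand) is the isovaleryl-CoA dehydrogenase of leucine breakdown. Ivd stood at 149.8, 138 and 159 CPM in LiK mice on the normal diet and at 129, 143 and 127 CPM on ACR. LiKM livers held 99.9, 115 and 87.2 CPM without ACR, and those given it 126, 130.2 and 91.2 CPM. On the normal diet the highest LiKM mouse was below the lowest LiK mouse (log2 fold change -0.57, SE 0.14, edgeR adjusted p = 0.0174). Both subunits of the next enzyme of the leucine route, Mccc1 (log2 -0.50, edgeR adjusted p = 0.0176) and Mccc2 (log2 -0.44, edgeR adjusted p = 0.0194), fell by similar amounts. They were at log2 -0.112 and -0.045 with library size alone, and at log2 -0.077 and -0.012 with hepatocyte markers. Of the branched-chain ketoacid dehydrogenase, the alpha subunit Bckdha fell (log2 -0.57, edgeR adjusted p = 0.0211) and the beta subunit Bckdhb did not pass (log2 -0.17, edgeR adjusted p = 0.26). The direction of Bckdhb depended on the scaling, with log2 0.211 with library size alone and log2 0.247 with hepatocyte markers. Bckdha shares 1171 exon bases with B3gnt8 on the opposite strand, and Bckdhb had values that were not whole in 9 libraries, so both are uncertain. Mccc1 is uncertain too, with values that were not whole in 8 libraries. It also shares 94, 321 and 198 exon bases with transcripts on the opposite strand. Both lysine genes fell. Gcdh (chr8:84886393-84893921, - strand) is glutaryl-CoA dehydrogenase. Gcdh stood at 383, 412 and 399 CPM in LiK mice on the normal diet and at 336, 357 and 338 CPM on ACR. Without ACR the LiKM mice had 302, 259 and 242 CPM, and with it 307, 321 and 265 CPM. All LiKM mice on the normal diet were below all LiK mice, by 1.49-fold (log2 fold change -0.57, SE 0.12, edgeR adjusted p = 0.00606). Aass, which starts lysine breakdown, fell by a similar amount (log2 fold change -0.71, SE 0.19, edgeR adjusted p = 0.022).

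In the glycine cleavage system 0 of 2 genes passed on the normal diet by edgeR, at an unadjusted p below 0.05 or by DESeq2: Gldc (log2 -0.48, edgeR adjusted p = 0.27) and Amt (log2 -0.26, edgeR adjusted p = 0.383). Of the transaminases, 2 of 5 fell on the normal diet. Got1 (chr19:43499752-43524605, - strand), the cytosolic aspartate aminotransferase, was the gene that fell on both diets. Got1 stood at 255, 208 and 256 CPM in LiK mice on the normal diet and at 327, 291 and 235 CPM on ACR. Its values in LiKM livers were 175, 181 and 145 CPM without ACR against 158, 159 and 151 CPM with it. The strains did not overlap on either diet. The level was 1.43-fold lower on the normal diet (log2 fold change -0.52, SE 0.14, edgeR adjusted p = 0.0219) and 1.82-fold lower on ACR (log2 fold change -0.87, SE 0.14, edgeR adjusted p = 0.00638). Etnppl (chr3:130617448-130637521, + strand), the lyase of phosphoethanolamine and a relative of Agxt2, had the widest difference of the 41. Etnppl stood at 37.5, 87.1 and 29.1 CPM in LiK mice on the normal diet and at 33.5, 11.5 and 14.7 CPM on ACR. The level in LiKM was 7.98, 15.3 and 5.09 CPM in mice not given ACR, and 38.7, 83.3 and 16.2 CPM in those given it. On the normal diet LiKM lay below LiK, 5.42-fold (log2 fold change -2.44, SE 0.71, edgeR adjusted p = 0.0349), but LiKM mice on ACR lay within the range of the 6 LiK mice. The Etnppl call ended with no filter, with the identifier or clock covariate, without LiKM normal diet 3 and LiKM ACR diet 2 and 3 together, and without LiK normal diet 1 or 2 or LiKM normal diet 1 or 3, and its log2 fold change ran from -2.96 to -1.82 with single libraries left out, the latter without LiK normal diet 2. Gpt, alanine aminotransferase (log2 -0.56, edgeR adjusted p = 0.176), Agxt (log2 -0.31, edgeR adjusted p = 0.551) and Agxt2 (log2 -0.28, edgeR adjusted p = 0.08), which detoxify glyoxylate, did not pass.

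**Figure D3:**
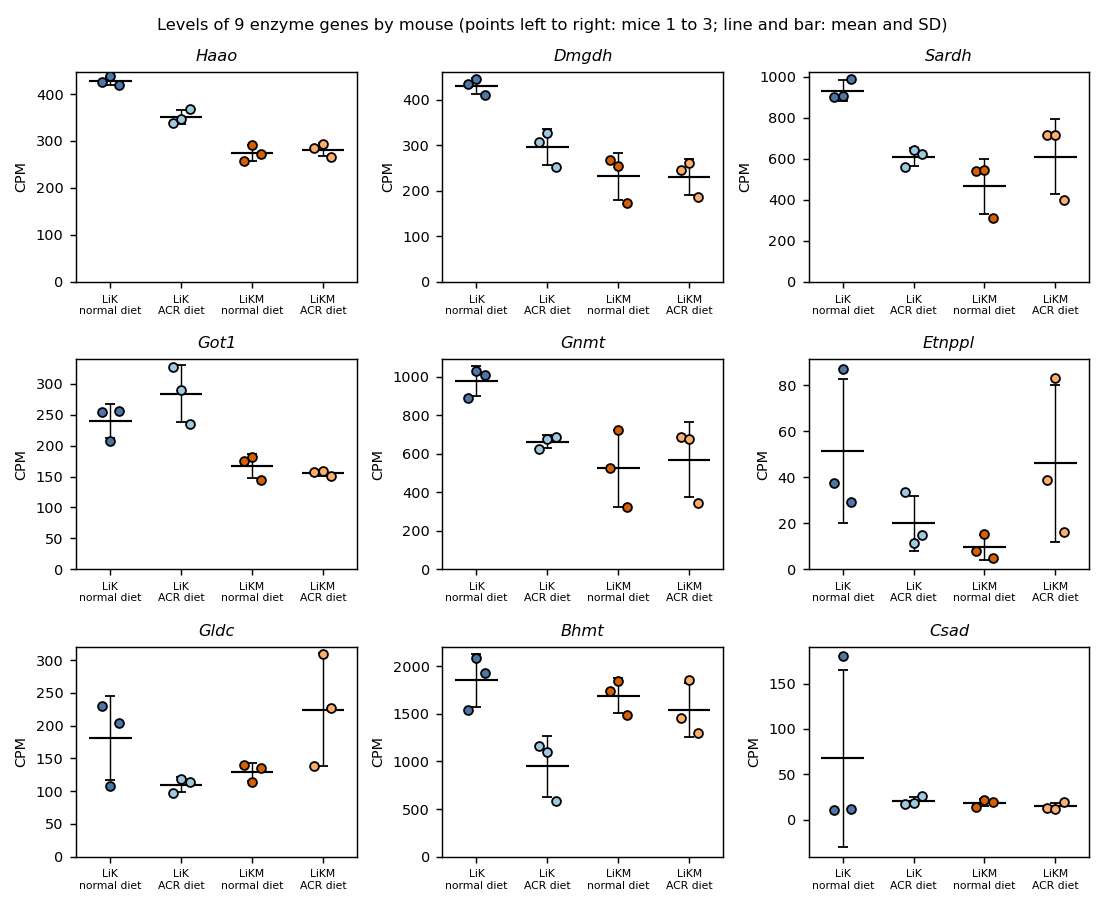
CPM of 9 enzyme genes (y axes, from 0 or below 0 where an SD bar reaches there) in the 4 groups (x axes); points are the 3 mice of a group, lines the means and bars the SD. Haao is between 419.9 and 438 CPM in LiK and between 258 and 292 CPM in LiKM mice on the normal diet, Etnppl and Gldc are spread widest in LiKM mice on ACR, and 1 LiK mouse sets the mean of Csad.

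Among 84 other listed genes of these pathways, 82 were in the table and 81 were tested. On the normal diet 31 fell and 3 rose (median log2 -0.40), where 8.61% of all genes tested fell and 13.2% rose. The smallest p-values belonged to Hibch, a hydrolase of valine breakdown (log2 -0.64, SE 0.10, edgeR adjusted p = 0.00176), and Qdpr, which regenerates the cofactor of phenylalanine hydroxylase (log2 -0.67, SE 0.12, edgeR adjusted p = 0.00267). Qdpr stood at 359, 315 and 339.8 CPM in LiK mice on the normal diet and at 325, 321 and 344 CPM on ACR. In LiKM mice its level was 197, 212 and 228 CPM without ACR and 199.8, 201 and 247 CPM with it. All 6 LiKM mice were below all 6 LiK mice. On ACR 10 fell and 4 rose (median log2 -0.18), where 4.24% of all genes tested fell and 5.55% rose. Chdh, the mitochondrial choline dehydrogenase that makes betaine (log2 -0.51, SE 0.091, edgeR adjusted p = 0.00904), and Qdpr (log2 -0.61, SE 0.11, edgeR adjusted p = 0.0105) had the smallest p-values there. In the comparisons of the diets 0 of the 81 passed in either strain.

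On ACR the strain comparison was repeated in 6 other mice. Of the 41 enzymes 1, Got1, fell and 0 rose, against 4.24% and 5.55% of all genes tested (9.79% either way). A fall by log2 1 or more was seen in 0 (0.814% of all genes), and 9 had an unadjusted p below 0.05 (27.6%). With TMM, 34 of 41 fitted changes lay below 0 (median -0.19, all genes 0.02). With library size alone, which put the median of all genes at 0.14, 30 lay below 0 (median -0.08), 1 fell and 2, Gldc and Bhmt, rose; with hepatocyte markers 31 lay below 0 (median -0.15), 1 fell and Gldc rose. Over all genes 771 rose and 588 fell with TMM and 877 and 249 with library size alone. In 10 enzymes the LiKM mice lay below the LiK mice without overlap, against 16% of all genes, and in 2 they lay above (17.2%). The Got1 call held under the other scalings and without each library, and ended with a clock gene component as a covariate, under which 25 of the 41 lay above 0 (median 0.18).

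A pair of enzymes lay higher in LiKM on ACR without overlap. Gldc (chr19:30098447-30175429, - strand), the decarboxylase of the glycine cleavage system, is set out first. Gldc stood at 229.7, 108 and 204 CPM in LiK mice on the normal diet and at 97.3, 119 and 113 CPM on ACR. LiKM livers held 139.8, 113 and 135 CPM without ACR, and those given it 138, 309 and 226 CPM. On ACR the LiKM mice exceeded the LiK mice, just short of the threshold (log2 fold change 1.03, SE 0.30, edgeR adjusted p = 0.0516). It passed with library size alone (log2 1.15), scaled to hepatocyte markers (log2 1.09) and with DESeq2 (log2 1.03). DESeq2 called 5 enzymes in all, Haao, Got1 and Bckdha lower and Gldc and Bhmt higher. Bhmt had 1160.3, 1101 and 581 CPM in LiK and 1462, 1854 and 1304 CPM in LiKM mice on ACR (log2 fold change 0.70, SE 0.24, edgeR adjusted p = 0.0862). Amt, the aminomethyltransferase of the same glycine cleavage system, overlapped between the strains (log2 -0.16, edgeR adjusted p = 0.644). With the replicate number as a block within LiKM, and the same limit on its p-values, 11 enzymes fell on ACR, which were Got1 (log2 -0.87), Agxt (log2 -0.85), Amdhd1 (log2 -0.63), Mat1a (log2 -0.50), Haao, Aldh4a1, Cbs, Dmgdh, Pipox, Bckdha and Aass. Over all genes 2473 passed with it, against 1359.

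**Figure D4:**
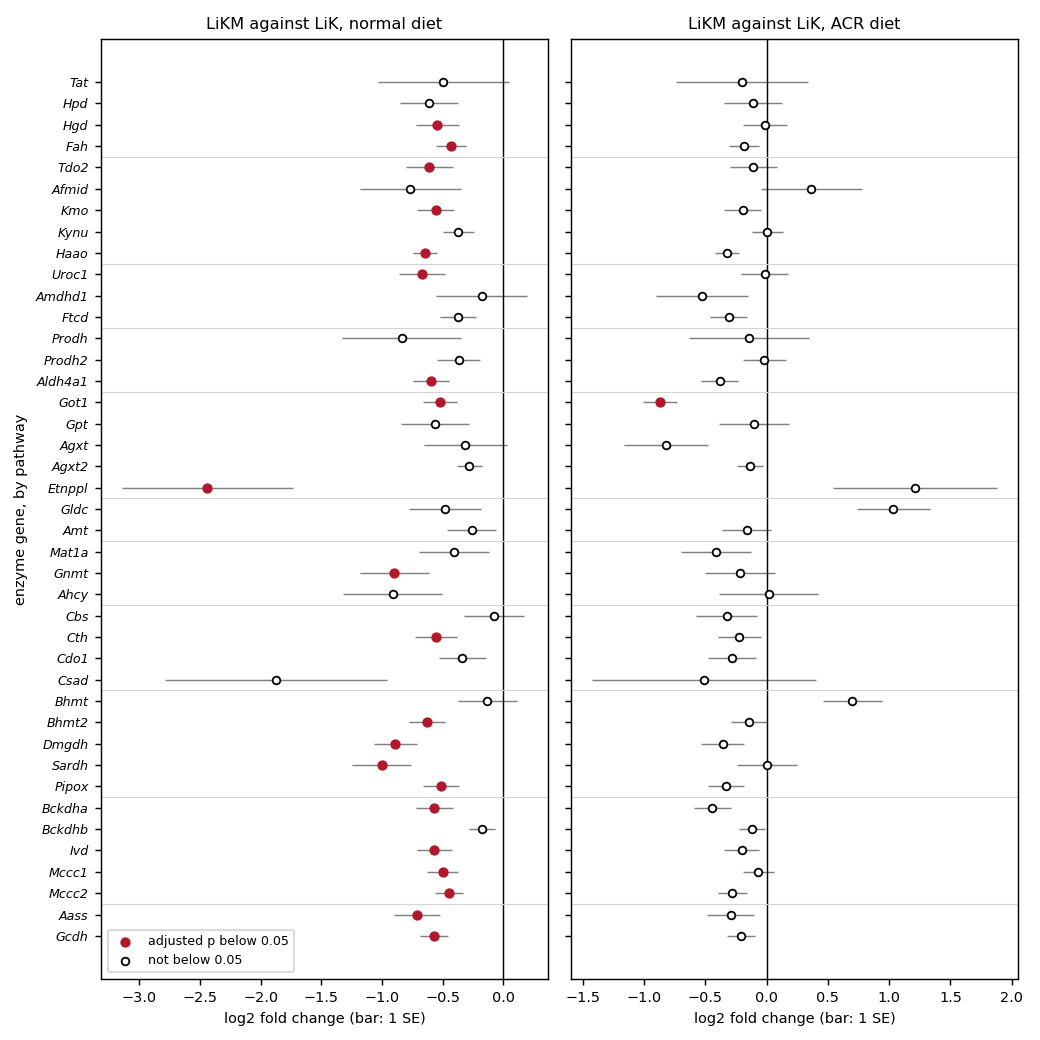
Log2 fold change of LiKM against LiK (x axes, bars 1 SE) for each enzyme gene (y axis, by pathway) on the normal diet (left) and on ACR (right); red points passed the test. On the left 21 of 41 are red and all lie below 0 (11 or 12 lie above 0 under other scalings); on the right Got1 is red, 34 lie below 0 with TMM and 30 with library size alone, and Etnppl, Gldc and Bhmt lie to the right of 0.

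The comparison of ACR with the normal diet within LiK mice asks how LiK livers differ on the drug. No enzyme passed (0 of 41 by edgeR, 7 at an unadjusted p below 0.05, 2 by DESeq2), where 0.195% of all genes passed, 0.0648% fell, 0.13% rose, 0.0432% fell by log2 1 or more and 14.1% had an unadjusted p below 0.05. Fitted changes lay below 0 for 32 of 41 (median -0.21, all genes 0.01), and for 25 with library size alone (median -0.08, all genes 0.13). In 17 enzymes all ACR mice lay below all normal-diet mice, against 14.6% of all genes, and in 3 above (13.4%). In the betaine and sarcosine set Bhmt (log2 fold change -0.97, SE 0.24, edgeR adjusted p = 0.126), Dmgdh (log2 -0.54, edgeR adjusted p = 0.213), Sardh (log2 -0.62, edgeR adjusted p = 0.289) and Bhmt2 (log2 -0.47, edgeR adjusted p = 0.205) did not overlap between the diets. By DESeq2, Bhmt (log2 -0.96) and Haao (log2 -0.28) fell. With the replicate block within LiKM 9 enzymes fell, which were Hgd, Afmid, Prodh, Gnmt, Ahcy, Bhmt, Bhmt2, Dmgdh and Sardh, and 2 rose, Amdhd1 and Cbs, while 701 of all genes passed. It was 11 with the 6 LiK libraries alone and 8 without LiKM normal diet 3 and LiKM ACR diet 2 and 3.

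Clock genes set some libraries apart. Nr1d1, a clock repressor, was at 23.2, 27.2 and 16.1 CPM in LiK mice on the normal diet and at 136, 181 and 153 CPM on ACR. In LiKM mice it was at 8.04, 20.7 and 215 CPM on the normal diet and at 18.2, 7.12 and 81.2 CPM on ACR. It was thus high in the 3 LiK mice on ACR and in both LiKM mice numbered 3. Not all clock genes grouped these libraries. Dbp was at 139, 137 and 136 CPM in LiK mice on ACR. It was at 74.0 CPM in LiKM normal diet 3, but at 3.54 CPM in LiKM ACR diet 3. Arntl was at 0.721, 1.73 and 0.892 CPM in those LiK mice, against 7.16 and 29.6 CPM in these LiKM mice. Per2 was lowest in the same libraries as Nr1d1 was high, at 58.9 to 63.5 CPM in LiK and at 34.9 and 8.54 CPM in LiKM. In the 2 LiKM libraries numbered 3, 21 of the 41 enzymes were below and 3, Amdhd1, Agxt and Cbs, were above the other 4 LiKM libraries. Prodh, for example, had 45.1 and 40.5 CPM in them and 119 to 192 CPM in the other 4. Cbs had 348 and 409 CPM in them and 199.7 to 289 CPM in the others. No source used here states the hour of collection, and its part in these results was not tested. With the first component of 8 clock genes as a covariate 17 enzymes fell in LiKM on the normal diet. That component was 2.76, 1.75 and 2.29 in LiK mice on ACR, against -5.78 in LiKM ACR diet 3. For LiKM mice on the normal diet it was -0.87, 0.48 and -0.53. It thus does not adjust for what sets LiKM normal diet 3 apart in Nr1d1.

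Within LiKM mice, 0 of 41 enzymes passed between the diets (edgeR; 3 at an unadjusted p below 0.05, 0 by DESeq2), as did 0% of all genes, 7.24% of which had an unadjusted p below 0.05. Fitted changes lay above 0 for 34 of 41 with TMM (median 0.14, all genes -0.01), but for 20 with library size alone (median -0.02, all genes -0.16) and for 7 with hepatocyte markers (median -0.18, all genes -0.33). Relative to all genes the median was 0.15, 0.14 and 0.15, which a change of scaling leaves nearly unaltered by construction. Etnppl, at 5.09 to 15.3 CPM on the normal diet and 16.2 to 83.3 CPM on ACR, was the 1 enzyme without overlap (log2 fold change 2.28, SE 0.70, edgeR adjusted p = 0.453), where 3.94% of all genes lay higher and 6.7% lower on ACR without overlap. Tdo2 (log2 0.52, edgeR adjusted p = 0.539) and Gldc (log2 0.79, edgeR adjusted p = 0.554) followed by p, and their groups overlapped.

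The difference between the diet effects of both strains was tested as an interaction. It passed for 0 of 41 enzymes (edgeR; 9 at an unadjusted p below 0.05, against 11.5% of all genes) and for 0.0072% of all genes. DESeq2 called 2, Etnppl and Gldc, where edgeR gave log2 3.65, edgeR adjusted p = 0.23 and log2 1.51, edgeR adjusted p = 0.232. With the replicate block within LiKM it was 3, Sardh (log2 1.00), Afmid (log2 1.10) and Ahcy (log2 0.85). The interaction lay above 0 for 36 of 41 with TMM (median 0.37, all genes -0.02), for 25 with library size alone (median 0.09, all genes -0.29) and for 18 with hepatocyte markers (median -0.01, all genes -0.40). Relative to all genes it was 0.39, 0.38 and 0.39, again nearly fixed by construction. The interaction is built from the same 12 libraries as the diet comparisons and is no separate observation.

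**Figure D5:**
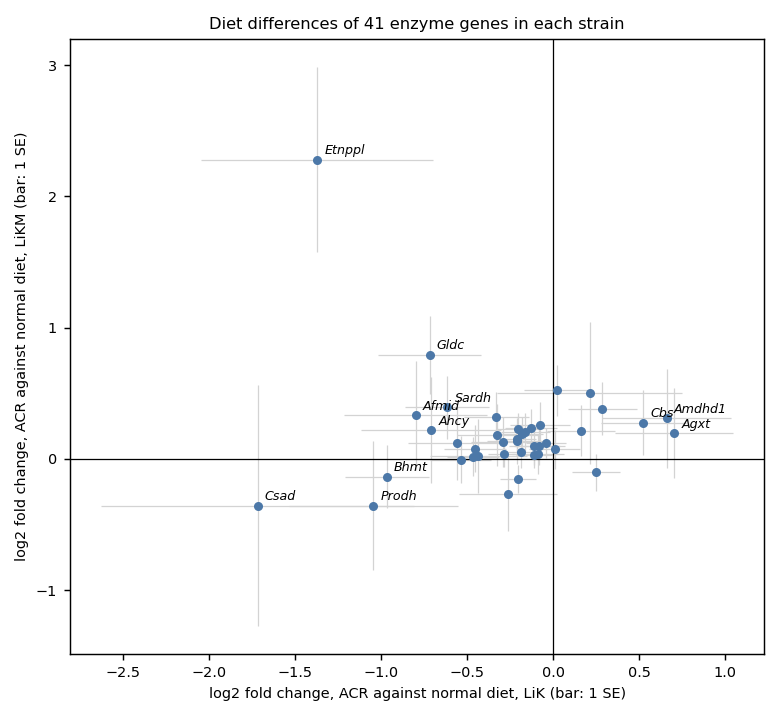
Log2 fold change of ACR against normal diet in LiK mice (x axis) and in LiKM mice (y axis) for the 41 enzyme genes, with bars of 1 SE. With TMM 32 points lie left of 0 and 34 above 0, Etnppl is at -1.37 and 2.28 and Gldc at -0.72 and 0.79; with library size alone 25 lie left of 0 and 20 above it, and no point passed the test in either strain.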

How the data were processed

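Libraries were made from total RNA with a stranded mRNA kit, per the labels' protocols. The authors deposited expected counts per gene symbol: 18.9% of the values above 0 are not whole (tolerance 1e-09). Counting with featureCounts 2.0.0 and the build mm10 are listed, per the submitters' processing notes; the aligner, annotation, strand setting and sharing of reads were not given in the sources used here. Totals ran from 10124813 to 18647156 per library, and 0 value columns were unmatched. Replicates differed by more than sampling noise in every pair (chi-square of 15.4 to 67.8 per degree of freedom).

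Counts were rounded and fitted on the whole table with edgeR 4.0.16 (filterByExpr by group, TMM, robust quasi-likelihood test, all 12 libraries, 1 coefficient per group, R 4.3.3), and p-values were adjusted by Benjamini-Hochberg over the 13880 genes tested, threshold 0.05. "Fell" and "rose" refer to this test, which was tested on simulated data. DESeq2 1.42.0 and the other alternatives are given below. Positions are from GENCODE annotation of mm10. The enzymes and gene lists were chosen with earlier results of these data known. Values of all mice are printed for enzymes that passed with an absolute log2 fold change of at least 1, for the smallest p of each pathway and for the 3 highest mean levels; others were picked with their values known.

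Whether equal numbers pair mice was checked from each mouse's deviations from its group mean, correlated over genes. For LiKM mice of both diets r was 0.37, 0.22 and 0.48 for numbers 1, 2 and 3 (other numbers at most 0.07), so the number served as a block within LiKM. This rests on the data, since no label says what a number shares. In the other comparisons it was -0.1 to 0.08. An allele that both strains share and a further pathway gene are not reported here.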

Additional observations from a re-analysis of the deposited data

How the results depend on the processing

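The count of enzymes lower in LiKM on the normal diet was 21, 3 with library size alone, 3 with hepatocyte-marker scaling and 9 with the 2 groups only; with single libraries left out it was 4 to 25. The calls ended were 17 without LiK normal diet 1, 12 without LiK normal diet 3, 12 without LiKM normal diet 3, 9 without LiKM normal diet 1 and 0 to 7 without any other library. It was 21 with DESeq2 size factors, 20 with no filter, 22 with DESeq2 and 20 with the replicate block over all groups. With the replicate block within LiKM it was 30 (all 21 among them). It was 21 with the opening letters of the count column's identifier as a covariate. A further fit left out 3 LiKM libraries (normal diet 3, ACR diet 2 and 3) chosen by clock genes in earlier work on these data. There Dmgdh was at log2 -0.739 and Sardh at log2 -0.799. The clock covariate, chosen after seeing the data, gave 17. The identifiers opened with MP in LiK normal diet 2 and 3 and in LiKM ACR diet 3, and with KM in all others. The normal-diet strain comparison and the diet comparison in LiK mice are thus partly confounded with these letters. Without LiK normal diet 1, letters and strain coincide fully on the normal diet. What the letters stand for is not stated in the sources used here.

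On ACR the strain count of 1 became 3 with library size alone, 2 with hepatocyte-marker scaling, 5 with DESeq2, 11 with the replicate block within LiKM, 0 with the clock covariate, 4 without the 3 LiKM libraries (which leaves 1 LiKM mouse on ACR, assumed to vary like the other groups) and 3 with the 2 groups only, and 1 to 3 with single libraries left out (2 without LiK normal diet 2, LiKM normal diet 1 or LiKM ACR diet 1, 3 without LiKM normal diet 3). The diet count in LiK mice of 0 became 2 with DESeq2, 11 with the replicate block within LiKM, 8 without the 3 LiKM libraries and 11 with the 2 groups only, and the count in LiKM mice of 0 became 1 with hepatocyte-marker scaling (Bckdhb, lower). The interaction count of 0 became 2 with DESeq2 and 3 with the replicate block within LiKM. These 3 counts were 0 without each library in turn. Where the replicate block is not named, it changed no count of enzymes by over 1.5 times. The causes were not tested.

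Over all genes, the interaction was called higher for 1 and lower for 0 with TMM, 1 and 15 with library size alone and 2 and 144 with hepatocyte markers, and the diet difference in LiKM for 0 and 0, against 1 and 470 with hepatocyte markers. Normal-diet strain calls numbered 3031, against 4831 and 5665 under those scalings and 1618 and 1826 without LiK normal diet 1 or 3. Diet calls in LiK mice went from 27 to 397 with DESeq2 and to 701 with the block within LiKM, diet calls in LiKM mice from 0 to 79 with DESeq2 and to 9 with that block, and interaction calls from 1 to 160 with DESeq2 and to 260 with the block. With 3 mice a group and a biological coefficient of variation of 0.203, enzymes of wide spread such as Csad, Prodh and Tat limit what could be called.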

Other observations

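A few genes of the same pathways lay opposite to the 41 enzymes. They were picked after their values were seen. Phgdh and Psat1, which open the synthesis of serine, and Mthfd2, a mitochondrial folate dehydrogenase, rose in LiKM mice on the normal diet, the 3 of 81 further pathway genes to do so. Phgdh stood at 0.282, 1.13 and 0.419 CPM in LiK mice on the normal diet and at 0.505, 0.4 and 0.549 CPM on ACR. In LiKM mice its level was 2.58, 1.41 and 2.94 CPM without ACR and 1.99, 0.949 and 2.32 CPM with it. The LiKM mice on the normal diet all exceeded the LiK mice (log2 1.84, SE 0.50, edgeR adjusted p = 0.0222). Psat1 stood at 1.69, 0.736 and 1.09 CPM in LiK mice on the normal diet and at 3.53, 5.13 and 3.09 CPM on ACR. LiKM livers held 5.76, 1.76 and 6.68 CPM without ACR, and those given it 5.66, 2.44 and 8.78 CPM. Psat1 did not overlap between the strains on the normal diet (log2 2.02, SE 0.57, edgeR adjusted p = 0.0283). Mthfd2 had 0.845, 1.19 and 1.67 CPM in LiK and 4.14, 2.11 and 4.45 CPM in LiKM mice on the normal diet (log2 1.54, SE 0.40, edgeR adjusted p = 0.0197). All 3 are low in these livers.

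On ACR, Phgdh (log2 1.84, SE 0.52, edgeR adjusted p = 0.0465), the serine phosphatase Psph (log2 0.78, SE 0.22, edgeR adjusted p = 0.0465), and the glutathione synthesis subunit Gclc (log2 0.89, SE 0.24, edgeR adjusted p = 0.0423) were higher in LiKM. Gclc stood at 269, 187 and 263 CPM in LiK mice on the normal diet and at 225, 211 and 189 CPM on ACR. Without ACR the LiKM mice had 215, 243 and 328 CPM, and with it 244, 491 and 422 CPM. Gclc was highest in LiKM ACR diet 2 and 3, at 491 and 422 CPM, the libraries in which the clock gene Npas2 was at 10.4 and 18.2 CPM against 1.51 CPM or less in the other libraries. Whether these levels are linked was not tested.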
